A study of Cavia porcellus with 35 samples.

Results

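Microglia genes were chosen by symbol, from a list of 41 genes that mark microglia or carry out their functions in the brain. Of these, 35 were listed in at least 1 of the 4 tables of read counts, among 12100 genes so listed, and 32 were listed in all 4 tables, among 10949 genes. ITGAM, C1QA, C1QC, C3, FCGR1A and VSIR were not analysed here. OLFML3 was not analysed in F1 females, and neither P2RY13 nor SPI1 was analysed in F2 females. TMEM119 was listed in F1 and F2 females but had too few reads there to be tested. After the filter on low counts, 33 microglia genes were tested in F1 females, 32 in F2 females, 35 in F3 females and 35 in F1 males.

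Microglia are the resident macrophages of the brain. They arise from yolk sac precursors, depend on signalling through the receptor CSF1R and on transforming growth factor beta for their survival and identity, and watch over the tissue through purine and chemokine receptors such as P2RY12 and CX3CR1. In the developing cortex they clear dying cells, engulf synapses tagged by complement and respond to infection through Toll-like receptors and immunoreceptor adaptors such as TYROBP. They also express the glucocorticoid receptor.

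RNA came from punches of the medial prefrontal cortex of juvenile guinea pigs at postnatal day 40, with 1 library per animal. The F1 animals were the daughters and sons of females given repeated courses of betamethasone, a synthetic glucocorticoid (sGC), or saline (control) late in pregnancy. F2 females were fathered by F1 males and F3 females by F2 males, each mated with females outside the experiment, so that only the F1 pregnancies were treated. There were 4 control and 4 sGC animals in each generation of females, and 5 control and 6 sGC F1 males. No other treatment is given in the labels.

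Library totals lay between 12819964 and 31763585 assigned reads, and no pair of libraries of a group was as close as sampling noise. The labels name the prefrontal cortex as the tissue, but the extraction protocol beside them names the paraventricular nucleus, a hypothalamic region. The summed level of 6 hypothalamic markers lay between 12.9 and 26.7 CPM (counts scaled by TMM to a common library size) in all animals. SLC17A7, a glutamatergic neuron gene of the cortex, was at 171 to 3580 CPM in F1 females. In that table, control animals 1 and 4 stood apart with summed striatal neuron markers of 2710 and 2570 CPM, against 594 and 923 CPM in the other controls and 249 to 628 CPM in the sGC animals. Of the genes that define microglia, CSF1R was read 1226 times or more in every F1 female and AIF1 107 times or more. TMEM119, which is held to be specific to microglia, had only 5 to 12 reads there. The 8 neutrophil markers were not listed in any table, at most 1 of 10 lymphocyte markers was, and the 3 or 4 border macrophage markers that were listed summed to 5.85 to 21.1 CPM. Fewer microglia and less RNA per microglial cell cannot be told apart in such bulk samples.

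In F1 females, microglia genes were lower in the sGC animals across nearly every role. At a false discovery rate (FDR) below 0.05 in edgeR's quasi-likelihood test, adjusted over all genes by the method of Benjamini and Hochberg, 11 of the 33 tested genes fell, against 7.33% of all genes tested in this direction, and 1 gene, SYK, rose, against 9.21%. The 11 were CSF1R, CX3CR1, P2RY12, ITGB2, C1QB, TYROBP, LAPTM5, CD74, LY86, INPP5D and SELPLG. The median log2 fold change over the tested microglia genes was -0.47, beside -0.03 over all genes. A negative sign was found for 29 of the 33, which compares with 54.5% of all genes, and 23 had an unadjusted p below 0.05 and a negative sign, which compares with 17.8%. In 13 microglia genes all sGC animals lay below all controls (11.2% of all genes), and in 0 all lay above (12% of all genes).

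**Figure D1:**
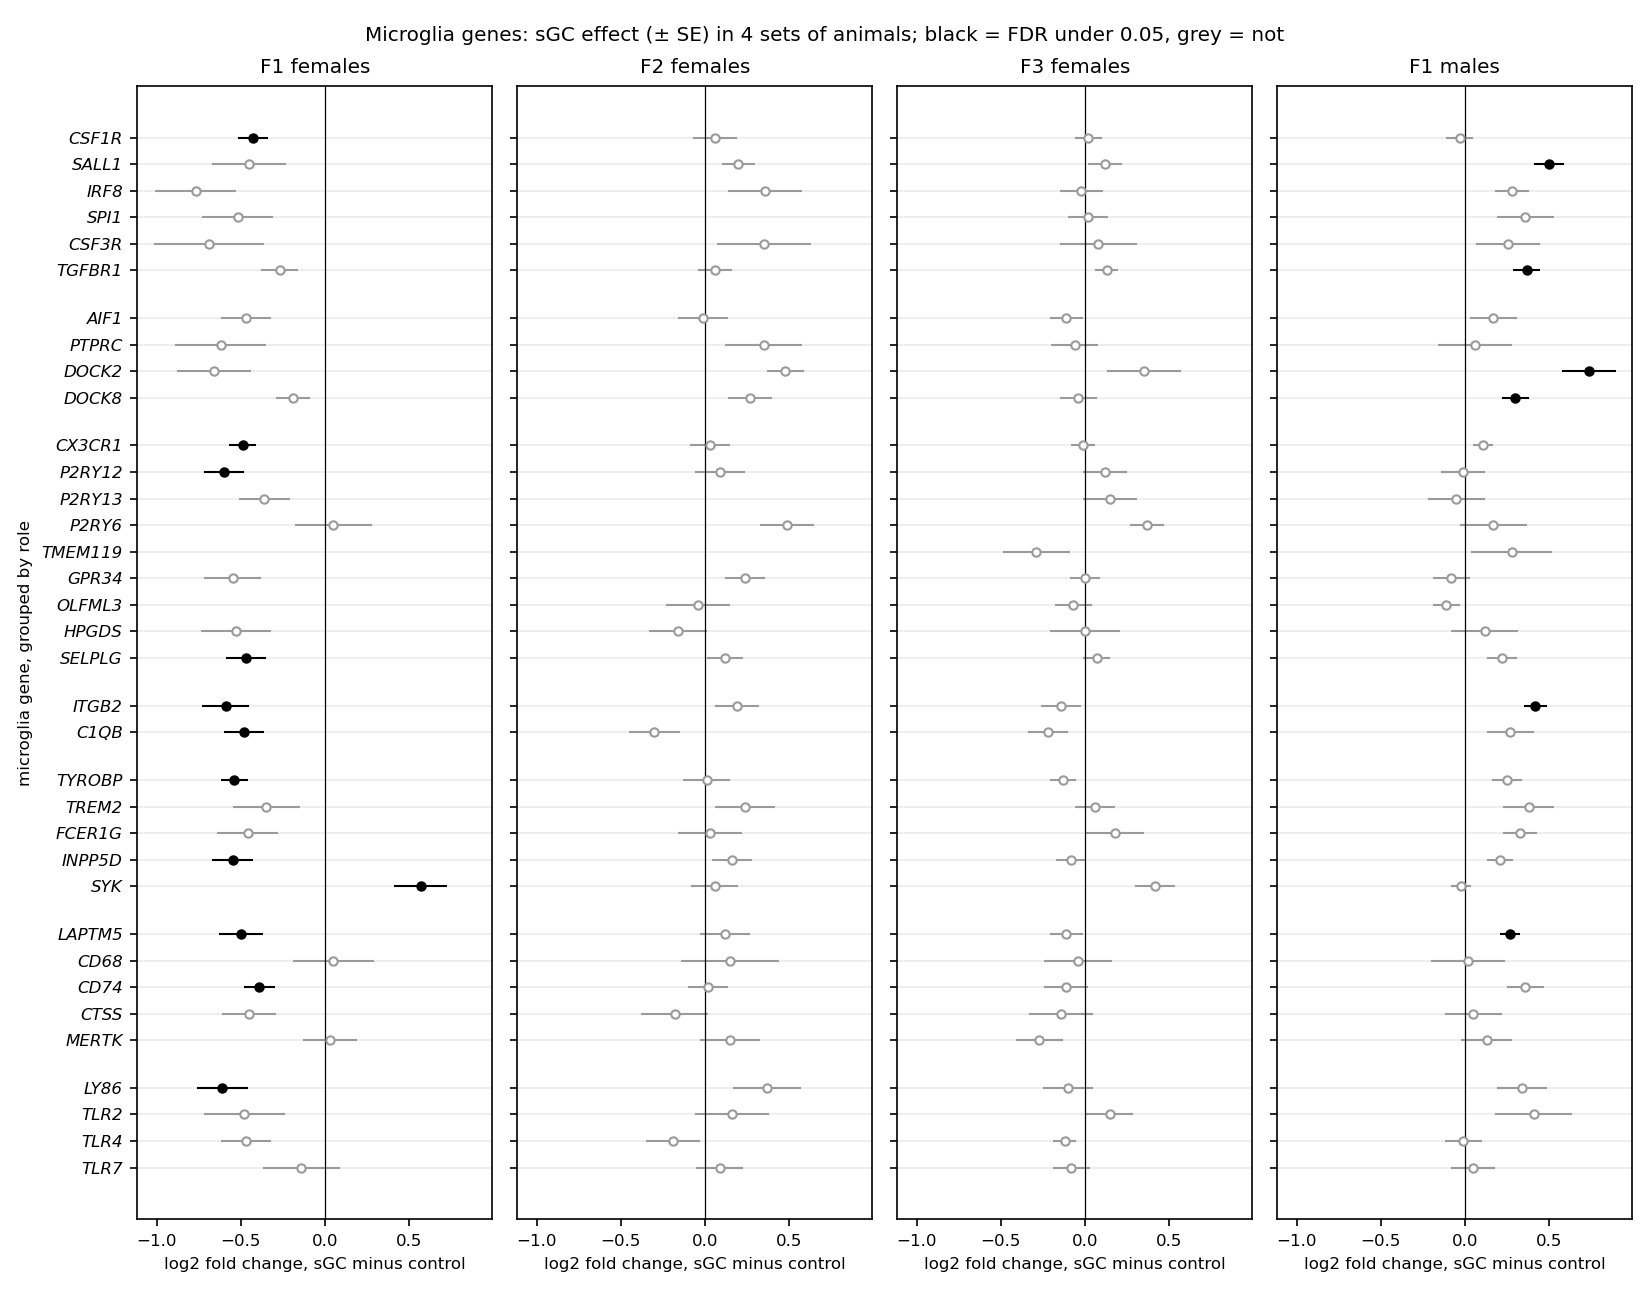
Log2 fold change (sGC minus control, ± SE) of each tested microglia gene, grouped by role, in F1, F2 and F3 females and F1 males. Filled black points have an FDR under 0.05: 12 in F1 females, of which 11 lie left of zero, 0 in F2 and F3 females, and 6 in F1 males, all right of zero.

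The lineage genes were led by CSF1R, the receptor for CSF1 and IL34 that microglia need to survive. Its level was 132, 135, 114 and 107 CPM in the 4 F1 female controls and 85.9, 93.1, 84.9 and 97.5 CPM in the 4 sGC animals. Every sGC animal thus lay below every control, and the log2 fold change was -0.43 (SE 0.09, FDR = 0.015 by quasi-likelihood), or 0.742 times the control level. IRF8, a transcription factor of the myeloid lineage, had the most negative log2 fold change of the tested members, -0.77 (SE 0.24), but missed the threshold (FDR = 0.0569 by quasi-likelihood). IRF8 was at 7.12, 9.89, 8.02 and 5.39 CPM in the controls and at 5.6, 3.58, 5.33 and 3.29 CPM in the sGC animals, so that the groups overlapped at control animal 4. CSF3R, the receptor for the granulocyte growth factor, was low and variable, with 2.16, 3.67, 1.87 and 1.71 CPM in the controls and 1.63, 1.1, 0.969 and 2.1 CPM in the sGC animals (log2 fold change -0.69, SE 0.33, FDR = 0.173 by quasi-likelihood). The transcription factors SALL1 and SPI1 and the receptor TGFBR1 had log2 fold changes of -0.45, -0.52 and -0.27, and none of them passed the threshold. In all, 6 of 6 lineage genes had a negative sign and 1 of them passed the test.

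Among the surface receptors and secreted markers of resting microglia, 3 of the 7 tested genes fell in F1 females. CX3CR1, the receptor for the neuronal chemokine fractalkine, was at 81.4, 75.5, 68.2 and 65 CPM in the controls and at 51.4, 55.2, 47.6 and 52.2 CPM in the sGC animals. The lowest control exceeded the highest sGC animal by a clear gap, and the log2 fold change was -0.49 (SE 0.08, FDR = 0.00774 by quasi-likelihood). P2RY12, the ADP receptor that steers microglial processes, fell from a mean of 37.1 ± 4.52 CPM (SD, n = 4) to 24.5 ± 3.58 CPM (log2 fold change -0.60, FDR = 0.015 by quasi-likelihood). SELPLG, a ligand of selectins, fell from 65.1 ± 11 to 47.1 ± 3.65 CPM (log2 fold change -0.47, FDR = 0.0322 by quasi-likelihood). P2RY6, a UDP receptor linked to phagocytosis, showed no such difference. It stood at 7.12, 5.67, 5.28 and 6.9 CPM in the controls and 7.62, 6.13, 3.95 and 8.26 CPM in the sGC animals, with the lowest and the highest level both in sGC animals (log2 fold change 0.05, SE 0.23, FDR = 0.884 by quasi-likelihood). GPR34, P2RY13 and HPGDS had negative log2 fold changes of -0.55, -0.36 and -0.53 that did not pass the threshold.

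Both tested members of the complement group fell in F1 females. ITGB2, the beta chain shared by the complement receptors and other leukocyte integrins, was at 16.7, 17.2, 13.8 and 12.5 CPM in the controls and 10.1, 7.92, 11 and 10.9 CPM in the sGC animals. The groups did not overlap, and the log2 fold change was -0.59 (SE 0.14, FDR = 0.0276 by quasi-likelihood). C1QB, a chain of the first complement component, fell from 16.9 ± 1.02 to 12.1 ± 1.94 CPM (SD, n = 4, log2 fold change -0.48, FDR = 0.0292 by quasi-likelihood).

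The immunoreceptor genes moved in both directions. TYROBP, the adaptor that carries the signal of TREM2, was at 20.4, 20.8, 21.4 and 21.4 CPM in the controls and 14.6, 16.3, 13 and 13.7 CPM in the sGC animals. It had the smallest spread among controls of the 34 listed members, with a coefficient of variation of 2.39%, and its log2 fold change of -0.54 (SE 0.08) gave the lowest FDR of the list (0.00612 in the quasi-likelihood test). INPP5D, a lipid phosphatase that restrains signalling downstream of such receptors, fell from 23.8 ± 3.4 to 16.2 ± 2 CPM (log2 fold change -0.55, FDR = 0.0217 by quasi-likelihood). SYK, the kinase that TYROBP recruits, rose instead. It was at 31.5, 23.9, 22.7 and 22.7 CPM in the controls and 41.1, 27.6, 42.4 and 38.9 CPM in the sGC animals (log2 fold change 0.57, SE 0.16, FDR = 0.0395 by quasi-likelihood). Control animal 1 lay above sGC animal 2, so that the groups overlapped. SYK is also expressed by cells other than microglia. TREM2 and FCER1G, the adaptor of Fc receptors, had log2 fold changes of -0.35 and -0.46 and did not pass the threshold.

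Of the Toll-like receptor genes, 1 of 4 fell. LY86, which pairs with a receptor related to TLR4, was at 3.74, 5.05, 5.15 and 5.13 CPM in F1 female controls and 3.25, 2.96, 3.18 and 3.01 CPM in sGC animals. Control animal 1 was lower than its group but still above every sGC animal, and the log2 fold change was -0.61 (SE 0.15, FDR = 0.0287 by quasi-likelihood). The receptors TLR2, TLR4 and TLR7 had log2 fold changes of -0.48, -0.47 and -0.14, with FDR values of 0.188, 0.0574 and 0.69 in the quasi-likelihood test.

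Among the genes of the lysosome, phagocytosis and antigen presentation, 2 of 5 fell. CD74, the invariant chain that escorts class II molecules, was at 215, 200, 207 and 190 CPM in the controls and 170, 142, 173 and 136 CPM in the sGC animals, without overlap (log2 fold change -0.39, SE 0.09, FDR = 0.0226 by quasi-likelihood). LAPTM5, a lysosomal membrane protein of leukocytes, fell from 30.8 ± 5.62 to 21.7 ± 2.3 CPM (SD, n = 4, log2 fold change -0.50, FDR = 0.0366 by quasi-likelihood). The scavenger protein CD68 and MERTK, a receptor for apoptotic cells that astrocytes also express, had log2 fold changes of 0.05 and 0.03 with standard errors of 0.24 and 0.16.

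None of the 4 cytoskeletal and pan-leukocyte genes passed the threshold in F1 females by the quasi-likelihood test, although all had a negative sign and 3 had an unadjusted p below 0.05. AIF1, the actin-binding protein known as IBA1 by which microglia are commonly stained, was at 8.99, 14.1, 11.6 and 11 CPM in the controls and 6.96, 8.41, 8.1 and 9.38 CPM in the sGC animals. Control animal 1 lay below sGC animal 4, and the log2 fold change was -0.47 (SE 0.15, FDR = 0.0652 by quasi-likelihood). With the likelihood ratio test, which the study used, AIF1 had an FDR of 0.0442, where 18.6% of all genes passed. By the quasi-likelihood test it passed in 1 of the 8 fits that left out 1 animal. DOCK2 and DOCK8, activators of small GTPases in leukocytes, had log2 fold changes of -0.66 and -0.19, and the leukocyte phosphatase PTPRC of -0.62.

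**Figure D2:**
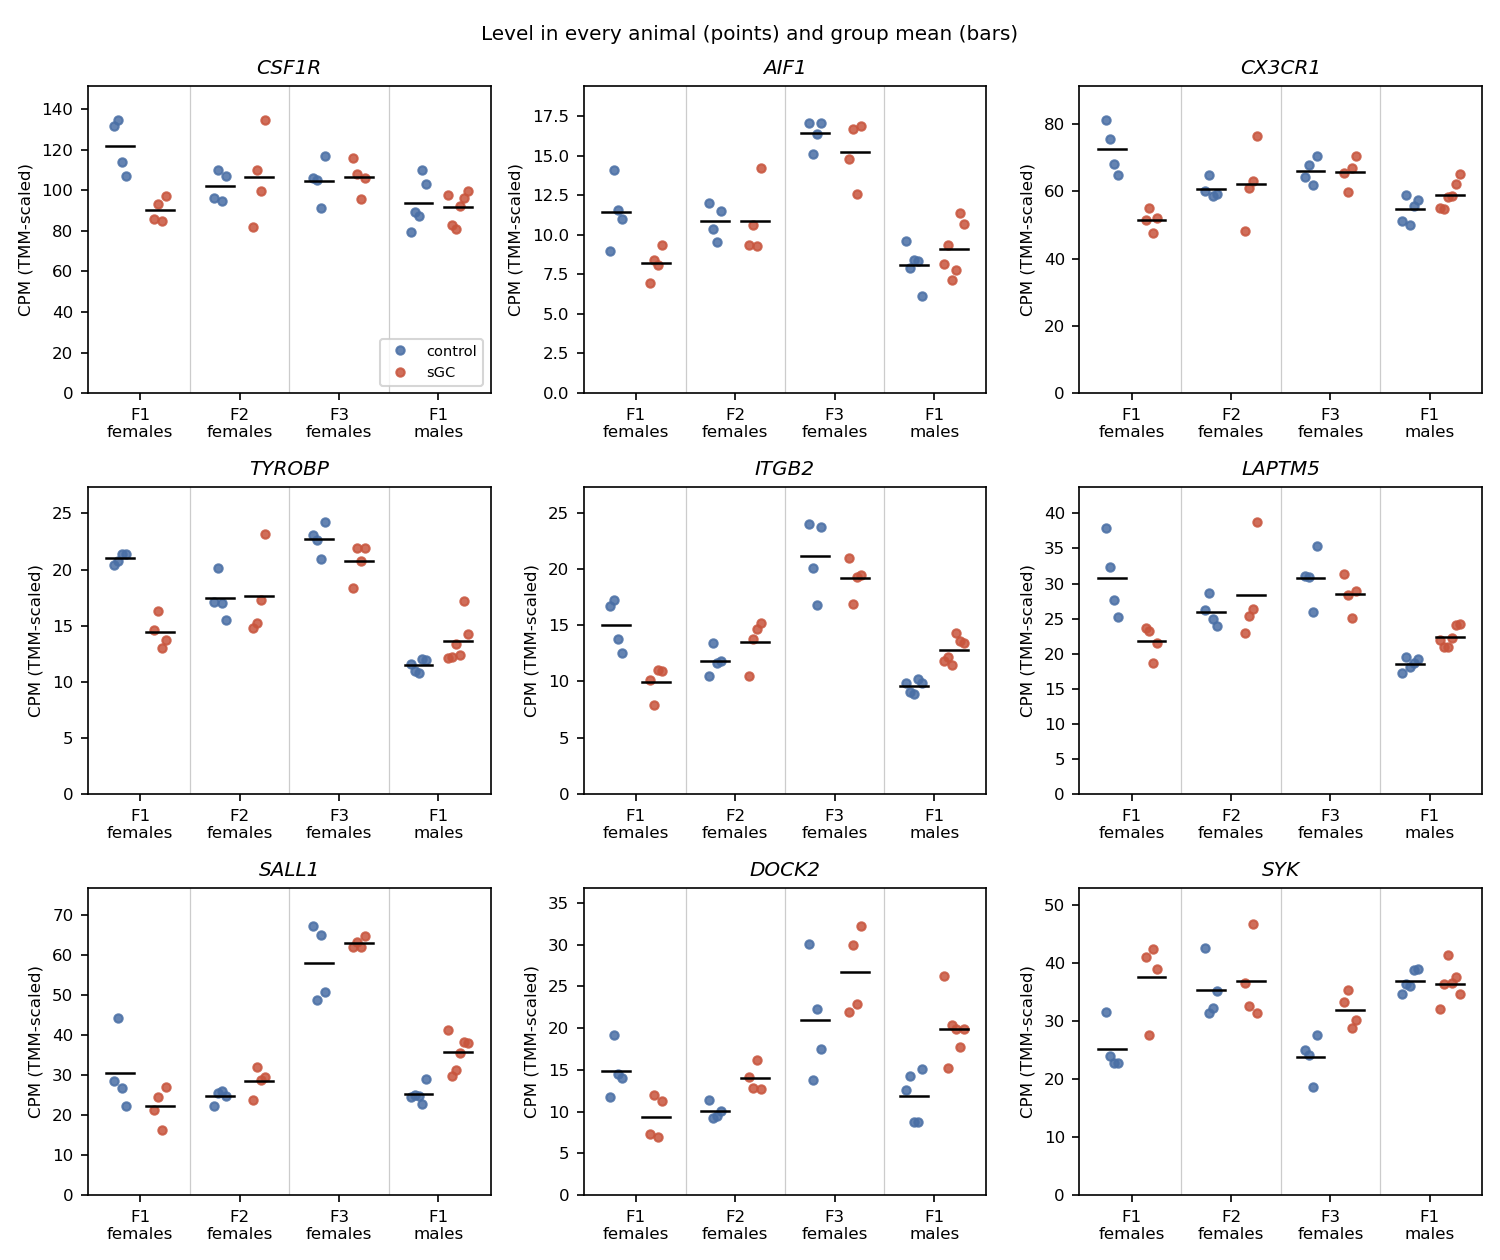
TMM-scaled CPM of 9 microglia genes in every animal, with control animals in blue, sGC animals in red and group means as black bars. In F1 females the CSF1R, CX3CR1, TYROBP, ITGB2 and LAPTM5 levels of the sGC animals lie below all controls, and in F1 males the ITGB2, LAPTM5, SALL1, TYROBP and DOCK2 levels of the sGC animals lie above all controls. Levels in different sets of animals were counted separately.

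Added over the 34 listed members, the microglia level of the F1 females was 1020, 1050, 920 and 846 CPM in the controls and 764, 710, 752 and 754 CPM in the sGC animals. All sGC animals were thus below all controls in this sum, of which CD74, CSF1R and DOCK8 made up 45.4% to 50.3%. Control animal 2 was the highest of the 8 in 19 of the 34 members, and sGC animals 2 and 3 were the lowest in 11 and 13. Markers of other cells moved with the groups in the same table. SLC17A7 was at 989, 317, 171 and 240 CPM in controls against 884 to 3580 CPM in sGC animals. The cortical neuron markers as a list went both ways. Of 10 tested, 3 rose and 2 fell by the quasi-likelihood test, against 9.21% and 7.33% of all genes. Their log2 fold changes ranged from -0.89 to 2.4. PPP1R1B, a striatal projection neuron gene, was at 1280, 242, 424 and 1180 CPM in controls against 81.8 to 288 CPM in sGC animals. Summed oligodendrocyte markers ranged from 4830 to 16400 CPM in controls and from 3790 to 7690 CPM in sGC animals, and 4 of 9 astrocyte markers fell. The part of these differences in tissue make-up in the lower microglia levels was not tested. Without control animals 1 and 4, which had the high striatal markers, 12 microglia genes fell and 1 rose, where 15.1% of all genes were called in either direction. The controls kept in that fit, 2 and 3, also differed in make-up from the sGC animals. They had SLC17A7 at 317 and 171 CPM and the highest summed oligodendrocyte markers of the table, 16400 and 10500 CPM. Of the 11 genes that fell in the full set, 9 were still called, while C1QB (FDR = 0.119) and CD74 (FDR = 0.0672) were not. AIF1, IRF8 and TLR4 were called in addition, and the median log2 fold change was -0.50.

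The calls in F1 females differed in how far they rested on single animals. CSF1R, CX3CR1, P2RY12 and TYROBP passed the threshold in all 8 fits that left out 1 animal, CD74 in 7 and INPP5D in 6. ITGB2 passed in 4, C1QB in 3, SYK in 2, and LAPTM5, LY86 and SELPLG in 1 each. The number that fell was 4 without control animal 3, 6 without sGC animal 1 or 4 and 7 without control animal 2. Calls over all genes, in either direction, dropped as well, from 16.5% to 5.42%, 7.32%, 9.81% and 10.8% in these fits.

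In the pathway lists beside the microglia genes, a minority of the tested genes passed the threshold in F1 females, where 7.33% of all genes fell and 9.21% rose. Of 25 tested microglia and myeloid genes outside the list, 5 fell and 0 rose in the quasi-likelihood test, with a median log2 fold change of -0.47. They were NCKAP1L, an actin regulator of blood cells (log2 fold change -0.89), CD48, CD53, the fatty acid receptor GPR84 and SASH3. Of 19 tested genes of Toll-like receptor and inflammatory signalling, 5 fell, namely the cytokine IL1B (-0.87), the inflammasome sensor NLRP3 (-0.71), the peptidoglycan sensor NOD2 (-0.75), the Toll-like receptor chaperone UNC93B1 (-0.49) and RELA (-0.30), and 0 rose. IL1B was near the lower limit of the table, at 2.26 ± 0.358 CPM in the controls and 1.23 ± 0.249 CPM in the sGC animals. Of 12 other complement genes, the alternative pathway genes CFD (-0.83) and CFP (-0.66) fell, while the anaphylatoxin receptor C5AR1 rose (log2 fold change 1.30, SE 0.25, FDR = 0.0133 by quasi-likelihood). Among the 13 tested genes of disease-associated microglia and lysosomes, APOE, NPC2 and B2M fell by 0.66, 0.44 and 0.30 on the log2 scale, and astrocytes express all of them too. Of 10 genes that keep the microglial niche, CD47, a signal against phagocytosis, rose (0.32) and SMAD3 (-0.46) and TGFBR2 (-0.22) fell, and CSF1 had a log2 fold change of -0.62 that did not pass the threshold (FDR = 0.142 by quasi-likelihood). None of the 10 other immunoreceptor signalling genes and none of the 3 border macrophage markers was called by this test. In the same test, an unadjusted p below 0.05 with a negative sign was found for 5 and 1 of them, against 17.8% of all genes. With a positive sign it was found for 1 in each list.

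In F2 females, 0 of the 32 tested microglia genes passed the threshold of edgeR's quasi-likelihood test, where 0.278% of all genes did. At an unadjusted p below 0.05, 2 microglia genes were higher (8.72% of all genes) and 0 lower (7.35%). The likelihood ratio test and DESeq2 each called 1 gene, DOCK2, where they called 4.8% and 4.23% of all genes. The median log2 fold change was 0.12, beside 0.01 over all genes, and 26 of the 32 had a positive sign (52.1% of all genes). CSF1R was at 96.4, 110, 94.6 and 107 CPM in the controls and 81.9, 110, 99.8 and 135 CPM in the sGC animals (log2 fold change 0.06, SE 0.13). AIF1 was at 12, 10.4, 9.55 and 11.5 CPM and at 9.36, 10.6, 9.3 and 14.2 CPM (log2 fold change -0.01, SE 0.15). For both marker genes the sGC animals spread around the controls, with sGC animal 4 the highest of all.

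DOCK2 and P2RY6 were the F2 genes with the most positive log2 fold changes, and the sole members in which all sGC animals lay above all controls (4.08% of all genes). DOCK2 was at 11.4, 9.25, 9.47 and 10.1 CPM in F2 controls and 14.2, 12.8, 16.2 and 12.7 CPM in sGC animals (log2 fold change 0.48, SE 0.11, FDR = 0.0729 by quasi-likelihood). P2RY6 was at 5.27, 4.63, 5.95 and 5.66 CPM and at 6.06, 9.68, 7.5 and 7.02 CPM (log2 fold change 0.49, SE 0.16, FDR = 0.176 by quasi-likelihood). The most negative were C1QB and TLR4. C1QB was at 15.6, 17, 19.3 and 17.4 CPM in F2 controls and 12, 17.2, 10.8 and 16.5 CPM in sGC animals (log2 fold change -0.30, SE 0.15). TLR4 was at 10.3, 12.6, 15.2 and 11 CPM and at 9.01, 13.1, 8.96 and 12.1 CPM (log2 fold change -0.19, SE 0.16). In both, sGC animals 1 and 3 were the low ones and the other sGC animals lay within the range of the controls.

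The spread among F2 sGC animals was shared by much of the list. The summed microglia level was 817, 856, 806 and 814 CPM in the controls and 712, 890, 854 and 1080 CPM in the sGC animals. Animal 4 of the sGC group was the highest of the table in 21 of 33 members and had the highest summed astrocyte and endothelial markers as well, at 10800 and 904 CPM. Animal 1 of that group was the lowest in 13 members. The median log2 fold change of the microglia genes was 0.02 without sGC animal 4 and 0.20 without sGC animal 1, and without sGC animal 4 a positive sign was found for 17 of the 32. Summed oligodendrocyte markers were 3380 to 5240 CPM in controls and 5020 to 11800 CPM in sGC animals, and the part of this in the microglia values was not tested.

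In F3 females, 0 of 35 microglia genes passed the threshold of the quasi-likelihood test (1.34% of all genes did), and at an unadjusted p below 0.05, 2 were higher (9.2% of all genes) and 0 lower (8.07%). The likelihood ratio test and DESeq2 each called 1, SYK, where they called 5.39% and 5.53% of all genes. The median log2 fold change was -0.02, beside -0.01 over all genes, and 15 of the 35 had a positive sign (48.2% of all genes). CSF1R was at 106, 105, 91.4 and 117 CPM in F3 controls and 116, 108, 95.8 and 106 CPM in sGC animals (log2 fold change 0.02, SE 0.08). AIF1 was at 17.1, 15.1, 16.4 and 17.1 CPM and at 14.8, 16.7, 12.6 and 16.9 CPM (log2 fold change -0.11, SE 0.10). Both genes overlapped over most of their range.

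SYK and P2RY6 were at the upper end in F3 females, and they were the members whose sGC animals all lay above the controls (5.95% of all genes). SYK was at 25, 24.2, 18.7 and 27.5 CPM in the controls and 33.3, 35.3, 28.7 and 30.1 CPM in the sGC animals (log2 fold change 0.42, SE 0.12, FDR = 0.107 by quasi-likelihood). P2RY6 was at 7.83, 7.39, 7.98 and 7.75 CPM and at 8.96, 9.55, 9.9 and 11.6 CPM (log2 fold change 0.37, SE 0.10, FDR = 0.106 by quasi-likelihood). The lowest log2 fold changes were those of TMEM119, at 1.84, 1.2, 1.71 and 1.33 CPM in the controls and 1.23, 1.43, 1.11 and 1.17 CPM in the sGC animals (-0.29, SE 0.20), and of MERTK, at 11, 14.4, 12.2 and 14.7 CPM and at 9.02, 10.5, 10.9 and 13.1 CPM (-0.27, SE 0.14). The groups overlapped in both. The summed microglia level was 971 to 1150 CPM in controls and 1020 to 1120 CPM in sGC animals, without separation of the groups. Summed cortical neuron markers did separate them, with 6390 to 8100 CPM in controls and 9310 to 9950 CPM in sGC animals. The single markers went both ways, with log2 fold changes of -0.85 to 0.73. Of 10 tested, 6 were higher and 3 lower at an unadjusted p below 0.05 in the quasi-likelihood test, against 9.2% and 8.07% of all genes. Summed striatal neuron markers were 334 to 1020 CPM in controls and 208 to 475 CPM in sGC animals. The part of these differences in the microglia values was not tested. In F2 and F3 females, none of the pathway lists beside the microglia genes had a gene past the threshold of the quasi-likelihood test, and each list had between 0 and 5 genes with an unadjusted p below 0.05.

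In F1 males the microglia genes that changed were higher in sGC animals. By edgeR's quasi-likelihood test, 6 of 35 rose (5.74% of all genes tested in this direction) and 0 fell (3.48%). The genes were SALL1, TGFBR1, ITGB2, LAPTM5, DOCK2 and DOCK8. At an unadjusted p below 0.05, 14 were higher (12.5% of all genes) and 0 lower (12.6%). The likelihood ratio test and DESeq2 each called 8 higher and 0 lower, where they called 12.2% and 13.8% of all genes in either direction. A positive sign was found for 28 of 35 (50% of all genes), and the median log2 fold change was 0.22, beside 0.00 over all genes. In 7 members all sGC animals lay above all controls (4.22% of all genes).

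The lineage genes of F1 males included both SALL1 and TGFBR1. SALL1, a transcription factor that maintains microglial identity and is also expressed in other neural cells, was at 24.5, 25, 24.9, 22.9 and 29.1 CPM in controls. In the 6 sGC males it ranged from 29.8 to 41.3 CPM with a median of 36.8 CPM, above all controls (log2 fold change 0.50, SE 0.09, FDR = 0.00585 by quasi-likelihood). TGFBR1, a receptor chain for transforming growth factor beta, rose from 9.81 ± 1.05 CPM (SD, n = 5) to 12.7 ± 0.861 CPM (n = 6, log2 fold change 0.37, FDR = 0.0131 by quasi-likelihood). CSF1R, in contrast, was at 79.4, 89.3, 87.4, 110 and 103 CPM in controls and between 80.9 and 99.9 CPM, with a median of 94.4 CPM, in sGC males, within the range of the controls (log2 fold change -0.03, SE 0.08).

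ITGB2 was at 9.87, 9.07, 8.9, 10.2 and 9.87 CPM in F1 male controls and ranged from 11.5 to 14.3 CPM, with a median of 12.8 CPM, in sGC males (log2 fold change 0.42, SE 0.07, FDR = 0.00585 by quasi-likelihood). LAPTM5 was at 17.2, 19.5, 18.1, 18.7 and 19.3 CPM in controls and at 21 to 24.2 CPM, median 22.1 CPM, in sGC males (log2 fold change 0.27, SE 0.06, FDR = 0.0128 by quasi-likelihood). DOCK2 was at 12.6, 14.3, 8.73, 8.77 and 15.1 CPM and at 15.2 to 26.2 CPM, median 19.9 CPM (log2 fold change 0.74, SE 0.16, FDR = 0.0146 by quasi-likelihood). All sGC males lay above all controls in these genes, with the smallest gap in DOCK2. DOCK8 rose from 92.5 ± 9.06 to 113 ± 10.6 CPM with overlap (log2 fold change 0.30, FDR = 0.027 by quasi-likelihood), and was called in 7 of the 11 fits without 1 animal. It did not pass without control animal 3 or 4 or without sGC animal 3 or 5, where its FDR was at most 0.0698. The other 5 genes passed in all 11.

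AIF1 and the purine and orphan receptors of resting microglia gave no call in F1 males. AIF1 was at 9.63, 7.91, 8.44, 8.32 and 6.13 CPM in controls and at 7.12 to 11.4 CPM, median 8.76 CPM, in sGC males (log2 fold change 0.17, SE 0.14, FDR = 0.5 by quasi-likelihood). OLFML3, a secreted microglial protein, had the most negative log2 fold change, -0.11 (SE 0.08), with 8.93, 9.7, 11.6, 10.1 and 11.6 CPM in controls and 9.07 to 10.3 CPM, median 9.49 CPM, in sGC males. GPR34, a lysophospholipid receptor, followed at -0.08 (SE 0.11), with 11.8, 13.1, 10.6, 12.5 and 10.8 CPM in controls and 8.85 to 13.3 CPM, median 11.3 CPM, in sGC males. The groups overlapped in each of these genes. CX3CR1 and P2RY12 had log2 fold changes of 0.11 and -0.01. Just short of the threshold lay FCER1G (log2 fold change 0.33, FDR = 0.0533) and CD74 (0.36, FDR = 0.0597), while TYROBP, whose sGC males were all above the controls, had a log2 fold change of 0.25 and an FDR of 0.105.

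Added over the 35 members, the F1 male level was 668, 698, 679, 698 and 722 CPM in controls and 726 to 897 CPM, with a median of 796 CPM, in sGC males, without overlap. Animal 6 of the sGC males was the highest of the table in 18 of 35 members, and its summed astrocyte and endothelial markers, 10300 and 857 CPM, were the highest as well. Without it, the median log2 fold change of the microglia genes was 0.17. Markers of myelinating cells moved with the groups in the same animals. All 10 tested oligodendrocyte markers rose, and their sum was 3670 to 6980 CPM in controls and 7820 to 13400 CPM in sGC males. Their part in the higher microglia levels was not tested.

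**Figure D3:**
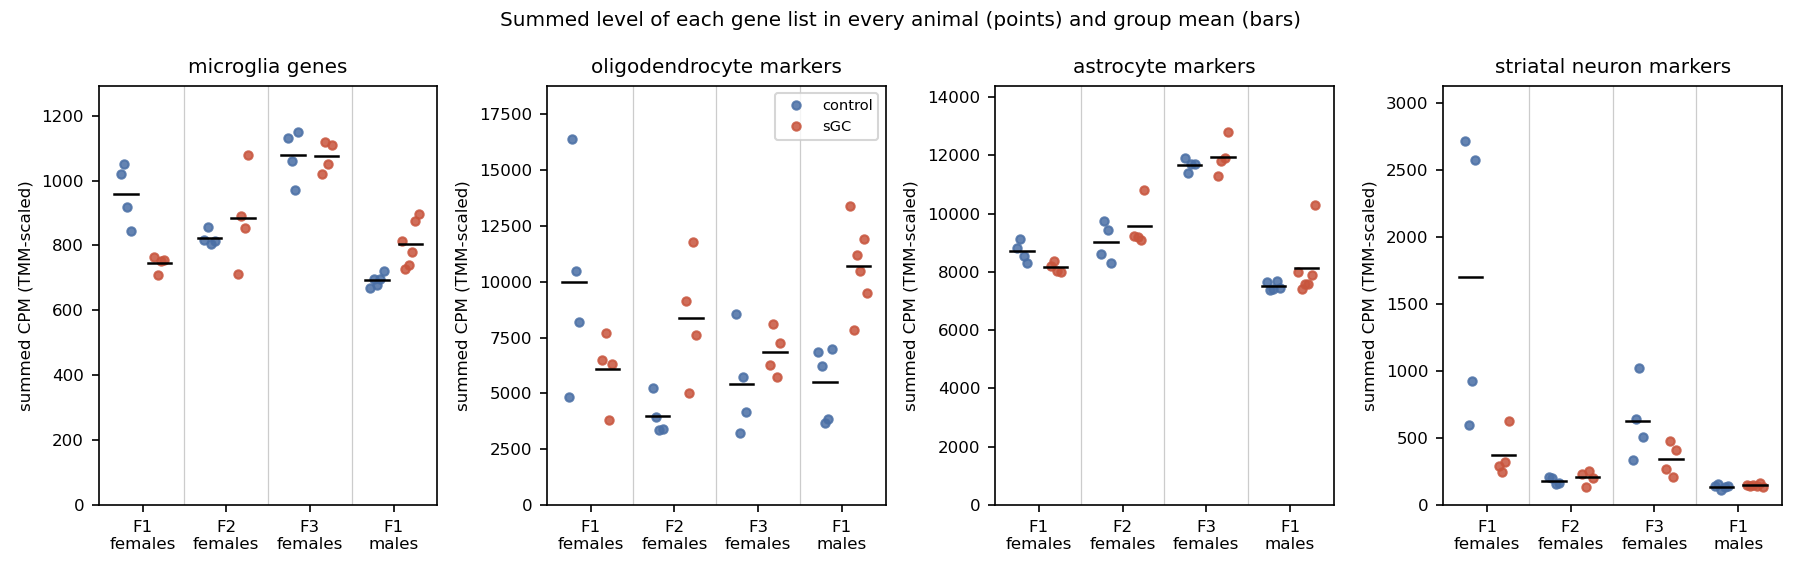
TMM-scaled CPM summed over the microglia genes and over markers of oligodendrocytes, astrocytes and striatal neurons, in every animal (points) with group means (bars). The microglia sum of sGC animals lies below all controls in F1 females (710 to 764 against 846 to 1050 CPM) and above all controls in F1 males (726 to 897 against 668 to 722 CPM), and the oligodendrocyte sum also separates the F1 males. Striatal markers reach 2710 CPM in F1 female controls.

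In the pathway lists of F1 males, between 1 and 5 genes of each list rose and 0 fell, where 5.74% of all genes rose and 3.48% fell. CSF1, a ligand of CSF1R, rose from 10.2 ± 1.6 to 15.6 ± 2.98 CPM (log2 fold change 0.62, FDR = 0.0167 by quasi-likelihood), and TGFB1, a ligand of TGFBR1, from 1.89 ± 0.114 to 2.67 ± 0.48 CPM (0.49, FDR = 0.0394), of 9 tested niche genes. The complement genes CFI (0.37) and CFD (0.41) rose out of 13. NOD2 (0.44) rose out of 20 inflammatory genes, the kinase LYN (0.20) out of 10 immunoreceptor genes, and CD9 (0.78) and NPC2 (0.27) out of 14 genes of disease-associated microglia and lysosomes. CD9 is also abundant in oligodendrocytes. Of 26 microglia and myeloid genes outside the list, SASH3 (0.34), LPCAT2 (0.80), LCP1 (0.39), GPR84 (0.52) and the ATP-gated channel P2RX7 (0.72) rose. None of the 4 border macrophage markers was called by the quasi-likelihood test, nor was an unadjusted p below 0.05 found for any.

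The response of the microglia genes to sGC was then compared between F1 females and F1 males by the interaction of treatment with set of animals. The male libraries form a separate table with other column names and higher depth, so that sex and whatever else separates the tables cannot be told apart. Of 34 tested microglia genes, 21 had an interaction FDR below 0.05 in edgeR's quasi-likelihood test, against 31.7% of all genes, and 25 had an unadjusted p below 0.05, against 42.2%. In 20 the effect was lower in females, against 16% of all genes, and for SYK it was higher, against 15.6% (difference 0.60, SE 0.16, FDR = 0.0078). The median difference in log2 fold change, females minus males, was -0.67, beside -0.01 over all genes. The smallest FDR was that of ITGB2, whose log2 fold changes of -0.59 in females and 0.42 in males differed by -1.0 (SE 0.15, FDR = 0.000133 by quasi-likelihood). TYROBP differed by -0.78 (SE 0.13, FDR = 0.00031), CX3CR1 by -0.59 (SE 0.10, FDR = 0.000396) and LAPTM5 by -0.77 (SE 0.14, FDR = 0.000569), again with negative values in females and positive values in males. The count was between 17 and 23 in the fits that left out 1 animal, where 26.7% to 32.1% of all genes passed.

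**Figure D4:**
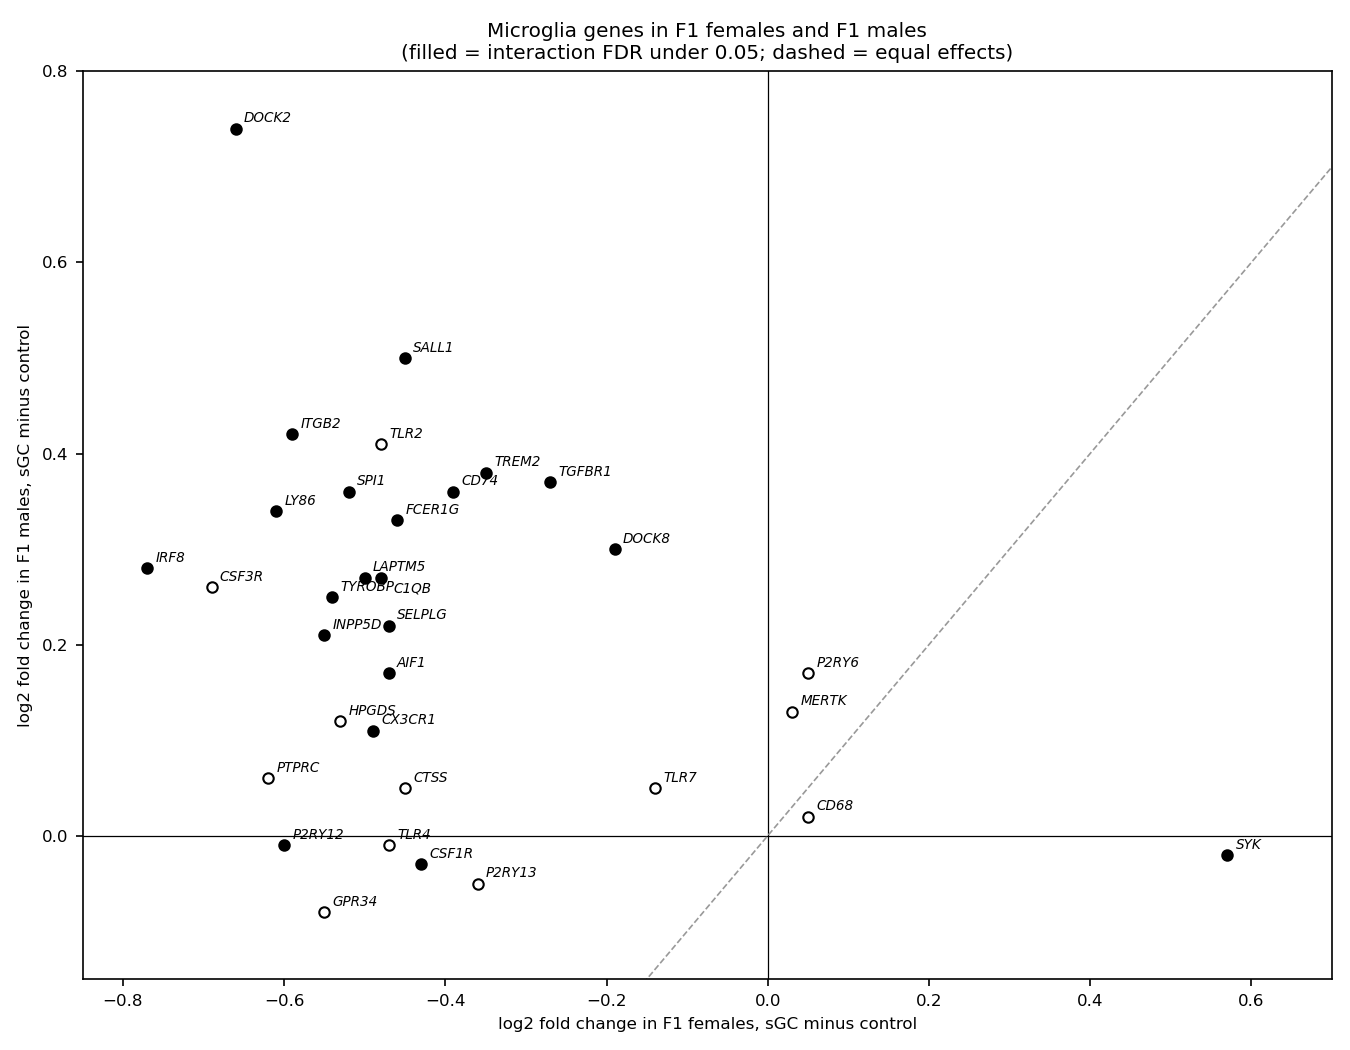
Log2 fold change (sGC minus control) of each microglia gene in F1 females (horizontal axis) and F1 males (vertical axis). Filled points have an interaction FDR under 0.05, and the dashed line marks equal effects. Most points lie in the upper left, with lower levels in sGC females and higher levels in sGC males, and SYK lies alone at the right.

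Of the 33 members tested in both F1 tables, 24, or 72.7%, had a negative log2 fold change in females and a positive one in males, which compares with 34.8% of all genes. ITGB2 and LAPTM5 were called in both, and both fell in females and rose in males. They make 16.7% of the female and 33.3% of the male calls, against 13.6% and 23.8% over all genes. Over all genes, 241 of the 249 genes called in both tables likewise had opposite signs.

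Between generations of females, the effect on the microglia genes was lower in F1 than in F2. Of 31 tested members, 10 had an interaction FDR below 0.05 in the quasi-likelihood test, against 13.8% of all genes, and all 10 had the lower effect in F1, against 6.75%. An unadjusted p below 0.05 was found for 19, against 30.7%. The smallest FDR values were those of DOCK2 (difference F1 minus F2 -1.13, SE 0.25, FDR = 0.0113), LY86 (-0.98, SE 0.25, FDR = 0.0194), INPP5D (-0.71, SE 0.18, FDR = 0.0199) and ITGB2 (-0.78, SE 0.20, FDR = 0.0217). This count depended on single animals. It was 4 without F1 control 2, F2 control 3 or F2 sGC animal 4, where 9.39%, 7.23% and 8.26% of all genes passed. It was 5 or 6 without F1 control 3, F1 sGC animal 3 or 4 or F2 control 1. In these fits 8.46%, 10.7%, 11.4% and 11% of all genes passed. The highest count was 13, without F2 sGC animal 1, where 12.8% of all genes passed. DOCK2, LY86, INPP5D and ITGB2 passed in all 16 fits that left out 1 animal.

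Between F1 and F3, 0 of 34 microglia genes had an interaction FDR below 0.05 in the quasi-likelihood test, where 0.0981% of all genes did, and 18 had an unadjusted p below 0.05 (15.8% of all genes). The likelihood ratio test called 2 and DESeq2 3, against 1.02% and 1.8% of all genes. CX3CR1 came closest, with a difference F1 minus F3 of -0.46 (SE 0.11, FDR = 0.0994), followed by P2RY12 (-0.70, SE 0.18, FDR = 0.121), TYROBP (-0.39, SE 0.11, FDR = 0.156) and SELPLG (-0.52, SE 0.15, FDR = 0.162). Between F2 and F3, 0 of 33 passed (0.018% of all genes) and 0 had an unadjusted p below 0.05 (11.5%), and the likelihood ratio test and DESeq2 also called 0. The differences of LY86 (0.48, SE 0.25), ITGB2 (0.34, SE 0.18), SYK (-0.36, SE 0.20) and MERTK (0.42, SE 0.24) had the smallest p-values there.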

How the data were processed

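RNA-seq read counts were analysed for 35 guinea pigs in 4 tables, 1 for each of F1, F2 and F3 females and F1 males. The authors deposited whole-number counts per gene symbol, without normalization. The submitters' processing notes name TopHat2 and edgeR. The genome build, annotation and read counter are not given in the sources used here. The tables also hold the authors' own dispersions, fold changes, likelihood ratio statistics, p-values and FDR, which were not used. Genes with few reads appear to have been left out before deposition, by a rule not stated.

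Fits were made with edgeR 4.0.16 (on limma 3.58.1), with DESeq2 1.42.0 as an alternative, under R 4.3.3. The filter filterByExpr was applied (minimum count 10, minimum total 15), libraries were scaled by TMM, and sGC was compared with control animals within each table by the quasi-likelihood test, adjusted over all genes by the method of Benjamini and Hochberg. Interactions were fitted on pairs of tables. The test was run on simulated data first. Levels are TMM-scaled CPM, and transcript lengths were not used. Levels of different genes were therefore not compared, apart from the sums over lists and the share of CD74, CSF1R and DOCK8 in the microglia sum. Such sums give more weight to genes with more reads. The precision rests on 12819964 to 31763585 assigned reads per library and on the number of animals.

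The members, gene lists and tests were chosen with earlier results of these data known, and lists are described by counts and medians beside all genes. Genes are named in each table where they are the markers CSF1R and AIF1, pass the threshold, or have 1 of the 2 highest or 2 lowest log2 fold changes. Values of every animal are given for the markers, these extremes and, within each role, the call with the smallest FDR. For interactions the 4 genes with the smallest FDR are named, and for other lists up to 4 called genes. Further genes (other members, the last of 5 called genes of a list, CSF1 in F1 females, SLC17A7 and PPP1R1B) were named after their values were seen. Same-numbered control and sGC animals did not deviate together (correlations of -0.33 to 0.37), so numbers were not treated as pairs. The fits were repeated by the likelihood ratio test and by DESeq2, under RLE or upper-quartile scaling, without a filter or requiring CPM above 1, with all 4 tables in a single fit, with the number as a replicate block, with omission of each animal, and, added after the data were seen, omission of F1 female controls 1 and 4.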

Additional observations from a re-analysis of the deposited data

Results flagged for a closer look

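In 70 groups of animals examined for a sample far from the others by Dixon's ratio, 2 stood out, and chance alone gives about 1 in 20. LY86 was at 3.74 CPM in F1 female control animal 1, against 5.05 CPM in the next animal of its group, and SYK was at 31.5 CPM in the same animal, against 23.9 CPM in the next. Both lie toward the sGC group.

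Differences of the response between sets of animals passed the interaction test in 21 microglia genes between F1 females and F1 males. The 4 with the smallest FDR were ITGB2 (-1.0 in log2 units, females minus males), TYROBP (-0.78), CX3CR1 (-0.59) and LAPTM5 (-0.77). Between F1 and F2 females, 10 passed, led by DOCK2 (-1.13, F1 minus F2), LY86 (-0.98), INPP5D (-0.71) and ITGB2 (-0.78).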

How the results depend on the processing

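The count of microglia genes that fell in F1 females was 11, and 19 in the single fit of all 4 tables. Over all genes, 16.5% and 30.4% were called in these fits in either direction. In F2 and in F3 females, the count that rose was 0, and 1 with the likelihood ratio test and 1 with DESeq2 (DOCK2 in F2, SYK in F3). The interaction count between F1 and F3 females was 0, and 2 with the likelihood ratio test, 3 with DESeq2, 1 in the single fit and 2 without F1 female controls 1 and 4. Over all genes, 1.02%, 1.8%, 2.02% and 3.29% passed in these 4 fits. The cause of these shifts in count was not tested. The log2 fold change of CSF1R in F3 females, 0.02, was a value of 0.00 just below zero with upper-quartile scaling. Apart from the block below, the other counts stayed within 1.5 times their values and the other named genes kept their sign. Of the values of named genes, 429 kept their direction and call, 19 became significant and 10 lost significance.

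Leaving out 1 animal gave 4 to 11 genes that fell and 0 to 1 that rose in F1 females, 0 to 1 that rose in F2 females and 4 to 13 interactions between F1 and F2. Over all genes and in either direction, these fits called 5.42% to 18.7% in F1 females and 0% to 4.36% in F2 females. For the interactions the share was 7.23% to 17.1%. Signs turned for genes with small changes, with ranges of -0.08 to 0.23 for P2RY6 in F1 females, -0.16 to 0.05 for AIF1 and -0.07 to 0.17 for CSF1R in F2 females, -0.03 to 0.08 for CSF1R in F3 females and -0.09 to 0.03 for CSF1R in F1 males.

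With the animal number as a replicate block, 9 genes fell and 1 rose in F1 females, 5 rose in F1 males, and the interactions numbered 17 between F1 females and males and 5, not 10, between F1 and F2 females. Over all genes and in either direction, 9.58%, 8.67%, 26.9% and 9.56% were called in these fits, in the same order. Without the block these shares were 16.5%, 9.22%, 31.7% and 13.8%. In the labels the number only names an animal.

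Groups of 4 to 6 animals, genes near 1 CPM and tissue make-up that differs between control and sGC animals, not only in F1 females, limit these comparisons.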
